A study of Mus musculus with 8 samples.

Results

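The genes described here encode 9 proteins of the brain's perineuronal matrix, the condensed coat of sugar chains and proteins around the body of some neurons. They were taken by symbol, all 9 were present, and they make up 9 of the 32285 genes counted. They are the lecticans aggrecan (Acan), brevican (Bcan), neurocan (Ncan) and versican (Vcan), the cross-linker tenascin-R (Tnr), the link proteins Hapln1, Hapln2 and Hapln4, and the receptor phosphatase Ptprz1. RNA was counted in single nuclei of the cerebral cortex of C57BL/6J mice at postnatal day 25. There were 4 wild type mice (WT) and 4 heterozygous for the chromatin remodeller gene Chd8 (Chd8het, Chd8+/-), each group made of 2 males and 2 females. Every mouse gave 1 library, and the mice formed 4 litter-matched pairs of like sex. Nuclei were taken from frozen cortex without its medial part. How Chd8 was altered is not given in the sources used here. For either sex of either genotype, the library numbered 1 was single-indexed and the library numbered 2 dual-indexed, which are designs of the sequencing barcode.

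In the perineuronal matrix, lecticans bind the long sugar hyaluronan at one end, link proteins hold that bond in place, and tenascin-R ties the other ends of the lecticans together. The lecticans and the secreted form of Ptprz1 carry chondroitin sulphate chains. In the cortex this coat is best known around fast-spiking interneurons that express Pvalb, and its maturation accompanies the end of juvenile plasticity. Related matrix surrounds the nodes of myelinated axons. The files give nuclear RNA, so they show which cells transcribe a matrix gene and not where its protein lies.

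The lectican and link genes lie next to each other in the mouse genome, and all coordinates here are GENCODE M21 genes on GRCm38, each protein coding. Bcan (chromosome 3, 87987531 to 88000230, minus strand) and Hapln2 (chromosome 3, 88021750 to 88027583, minus strand) are 21.5 kb apart. Ncan (chromosome 8, 70093085 to 70120873, minus strand) and Hapln4 (chromosome 8, 70083457 to 70090862, plus strand) are 2.22 kb apart. Vcan (chromosome 13, 89655312 to 89742509, minus strand) and Hapln1 (chromosome 13, 89539796 to 89611652, plus strand) are 43.7 kb apart. No protein-coding gene lies between the 2 genes of any of these pairs. Acan (chromosome 7, 79053483 to 79115099, plus strand), Tnr (chromosome 1, 159523769 to 159931729, plus strand) and Ptprz1 (chromosome 6, 22875502 to 23052916, plus strand) complete the set. Tnr spans 408 kb and overlaps 2 genes annotated on its own strand and 1 on the other, while Hapln2 spans 5.83 kb. Vcan overlaps 2 genes on the opposite strand, and where strand was not used in counting their reads could not be told apart.

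The sequences before the start sites of 2 such neighbours, Bcan and Hapln2, and of Vcan and Tnr are shown because these genes differ in the glial cells that carry their highest levels below. Each is the 250 bases upstream of the RefSeq start on GRCm38.p6, written 5′ to 3′ on the gene's strand, and capitals mark matches on either strand. The motifs searched were the TATA box TATAAA and the GC box GGGCGG. They also included the CCAAT box, the SOX core ACAAAG, and a second such core, which is ACAATG.
Bcan (chr3:88000357-88000606, minus): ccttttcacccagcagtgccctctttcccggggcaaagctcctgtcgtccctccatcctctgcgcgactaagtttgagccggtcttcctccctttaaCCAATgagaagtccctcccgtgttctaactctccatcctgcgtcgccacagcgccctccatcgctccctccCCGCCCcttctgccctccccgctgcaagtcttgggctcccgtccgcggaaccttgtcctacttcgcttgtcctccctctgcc
Hapln2 (chr3:88027512-88027761, minus): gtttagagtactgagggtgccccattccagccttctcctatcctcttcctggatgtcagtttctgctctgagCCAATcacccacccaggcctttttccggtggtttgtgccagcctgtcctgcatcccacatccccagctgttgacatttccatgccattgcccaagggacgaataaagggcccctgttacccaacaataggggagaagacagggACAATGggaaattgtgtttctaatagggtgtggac
Vcan (chr13:89742513-89742762, minus): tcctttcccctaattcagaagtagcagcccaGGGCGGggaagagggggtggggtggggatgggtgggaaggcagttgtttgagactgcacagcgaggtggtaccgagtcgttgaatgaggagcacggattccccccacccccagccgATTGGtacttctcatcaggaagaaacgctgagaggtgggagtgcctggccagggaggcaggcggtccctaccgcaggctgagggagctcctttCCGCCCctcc
Tnr (chr1:159523519-159523768, plus): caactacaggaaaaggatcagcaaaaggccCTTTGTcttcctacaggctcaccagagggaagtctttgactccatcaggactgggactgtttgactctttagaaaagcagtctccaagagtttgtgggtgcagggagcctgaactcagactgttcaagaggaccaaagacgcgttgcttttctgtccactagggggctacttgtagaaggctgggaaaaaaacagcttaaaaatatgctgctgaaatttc
The Bcan window holds 16 CpG dinucleotides, a GC box (GGGCGG) and a CCAAT box, and the Vcan window holds 10 CpG, 2 GC boxes and a CCAAT box on the other strand. Hapln2 also has a CCAAT box. The windows of Tnr and Hapln2 hold 2 CpG each and no GC box, against a median of 6 CpG over 32817 such windows. Tnr has 1 match to ACAAAG and Hapln2 has 1 to ACAATG, cores that SOX factors can bind. The Hapln2 window runs into the gene's GENCODE span, which reaches 88027583, and the ACAATG lies in that shared stretch. Of all windows, 32.7% hold GGGCGG, 33.8% CCAAT, 16.5% ACAAAG and 10.7% ACAATG on either strand, so each match is common and says nothing of binding. Entries were found for 8 of the 9 genes.

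Nuclei were sorted into classes by marker genes that exclude the 9 genes. The deposited libraries held 9140 to 14280 barcodes and 69.5 to 98.1 M UMIs (unique molecular identifiers, each counting 1 RNA molecule). After removal of poor nuclei and predicted doublets 78168 nuclei were kept, and 64925 fell into 21 classes with at least 15 nuclei in every library or into a small striatal class that is not described. No more than 63 barcodes were shared by any 2 libraries. Chd8 itself, summed over all kept nuclei, was at 79.0 ± 2.73 CPM in WT and 80.2 ± 6.35 in Chd8het (SD, n = 4 each; exact two-sided permutation test, p = 0.857). Since the allele is not described, it is not known whether these 3′ counts could show its loss, so they do not check the genotype labels. Levels are given as CPM (a gene's UMIs scaled to the UMI total of the same class and library), as mean ± SD over 8 libraries unless stated. CPM are used to compare 1 gene between classes; they are not scaled by gene length, so the levels of different genes are not compared.

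**Figure D1:**
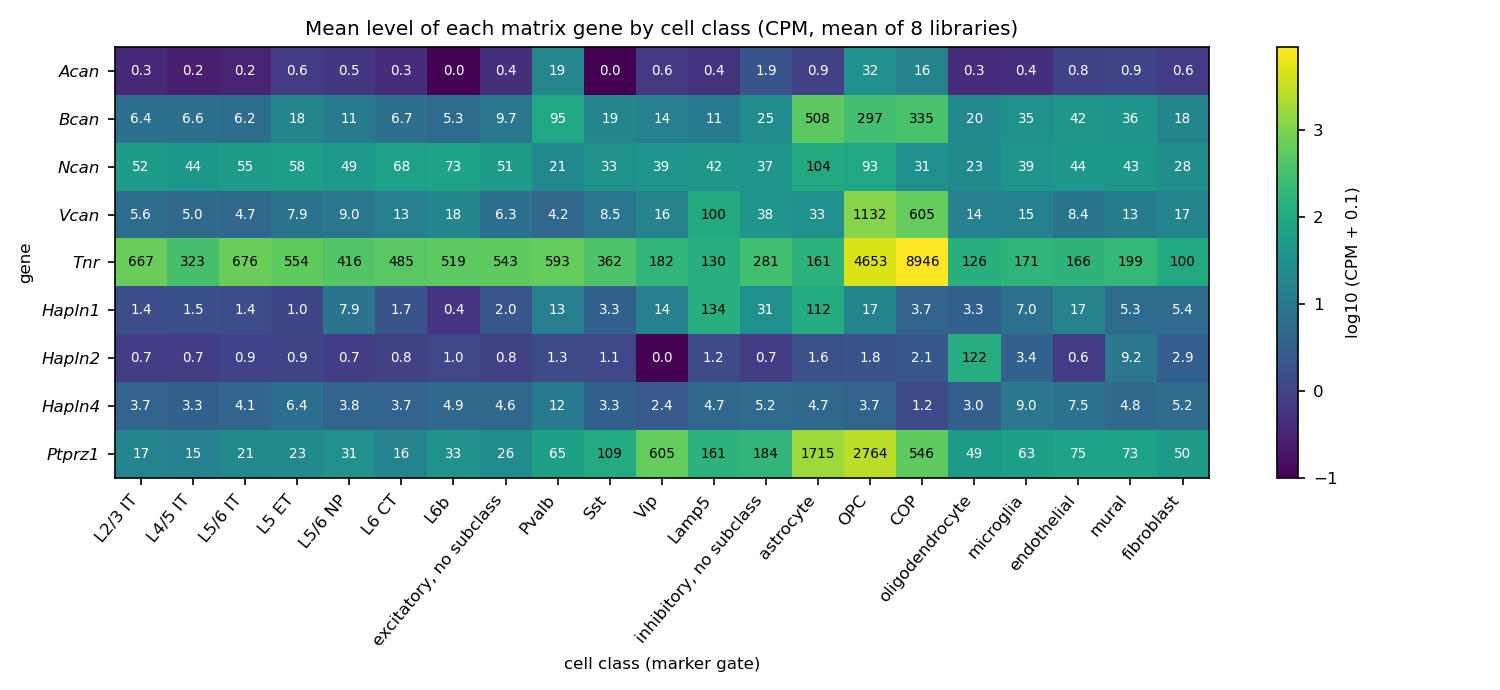
Mean level of each of the 9 genes (rows) in the 21 cell classes (columns); numbers are CPM averaged over 8 libraries and colour is log10 of CPM + 0.1. Vcan and Tnr are highest in precursors of oligodendrocytes, Hapln2 in oligodendrocytes, and Acan in OPC, Pvalb and COP.

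Aggrecan, the lectican that defines the classic net, came mainly from 2 kinds of cell, Pvalb interneurons and oligodendrocyte precursors (OPC). In OPC the 8 libraries ranged from 21.3 to 39.4 CPM with a median of 32.0. In the Pvalb class they ranged from 13.9 to 23.1 with a median of 19.4. The OPC level was higher in 7 of 8 libraries (1.66-fold), and the ranges overlapped. In committed precursors (COP), the stage between OPC and oligodendrocyte, the level was 16.4 ± 12.1 and the libraries were widely scattered, from 2.5 to 35.6. Each of the other 18 classes had a mean of at most 1.86 CPM. Not 1 Acan UMI was found in the Sst class among 4.90 M UMIs, which allows a level of up to 0.613 CPM, so the Pvalb level, summed over libraries, was at least 31.4-fold higher. That holds for the 597 nuclei that the gate named Sst, 55.3% of them near its cut. Clustering named 1880 nuclei Sst, and their Acan level is not given here. Because Pvalb nuclei hold more RNA than OPC, the order turned per nucleus, with 0.19 ± 0.03 Acan UMIs in a Pvalb nucleus and 0.11 ± 0.03 in an OPC. The Pvalb class carried 44.5% ± 6.1 of all Acan UMIs in gated nuclei, OPC 26.1% ± 4.7 and excitatory neurons together 17.5% ± 3.5.

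Few nuclei showed an Acan molecule at this depth. An Acan UMI was seen in 14.8% ± 2.9 of Pvalb nuclei (median 9050 UMIs), 9.07% ± 2.56 of OPC (median 3022) and 0.05% ± 0.10 of microglia (median 1464), which should lack the gene. After thinning each nucleus to 1000 UMIs the shares were 1.39%, 2.88% and 0%. Of the Pvalb nuclei 33.1% lay close to the cut of the gate, and with the stricter gate the Pvalb share of Acan UMIs was 31.2%.

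Brevican, an abundant lectican of the adult brain, was mainly a glial transcript with a separate level in Pvalb interneurons. Astrocytes ranged from 470 to 546 CPM with a median of 517, and every library there exceeded every library of the other classes. COP (335 ± 62) and OPC (297 ± 39) followed and could not be ordered, each being higher in 4 of 8 libraries. The Pvalb class stood at 95.0 ± 7.0, from 85.8 to 105.6, which was 5.03-fold above Sst and 14.8-fold above L2/3 intratelencephalic (IT) neurons, with no overlap in either case. The summed level of the 8 astrocyte markers was 480 CPM in Pvalb, 295 in Sst and 502 in L2/3 IT, and all 8 had UMIs in each of these classes. The part of astrocyte RNA in the Pvalb level was not tested. The other excitatory and inhibitory classes had means from 5.28 (L6b) to 25.0 CPM (inhibitory nuclei without subclass). Astrocytes carried 47.6% ± 2.3 of Bcan UMIs, excitatory neurons together 19.7% ± 3.2, OPC and COP together 16.4% ± 1.6, and the Pvalb class 10.1% ± 2.5.

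Neurocan, a lectican prominent in the juvenile brain, was spread over nearly every class. Its mean was highest in astrocytes (104 ± 15 CPM) and OPC (92.7 ± 17.1), which differed by 1.12-fold with overlapping ranges. The excitatory classes followed, with L6b at 72.9 ± 14.0, L6 corticothalamic (CT) neurons at 67.9 ± 5.0 and the rest between 44.4 and 58.3. Endothelial cells (44.4 ± 11.5), mural cells (43.2 ± 22.6) and microglia (39.2 ± 7.8) overlapped the lower excitatory classes. A Ncan UMI was seen in 40.4% ± 6.0 of L2/3 IT nuclei (median 9904 UMIs) and 5.92% ± 1.38 of microglia (median 1464), and after thinning to 1000 UMIs in 5.49% ± 1.49 and 3.94% ± 0.76. The part of free RNA in these levels was not tested. Per nucleus the order was different, with L5 extratelencephalic (ET) neurons highest at 0.85 ± 0.10 UMIs and astrocytes at 0.29 ± 0.05. The Pvalb class had the lowest mean at 20.6 ± 4.8 CPM and overlapped oligodendrocytes (22.8 ± 7.1), which were higher in 5 of 8 libraries. Excitatory neurons carried 83.8% ± 2.4 of Ncan UMIs and were 65.3% of gated nuclei, but their nuclei also held more UMIs. The medians of their classes were 7453 to 13168 UMIs, against 2619 in astrocytes and 3022 in OPC. The 2 percentages therefore do not show a higher Ncan level in excitatory neurons.

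Versican, which is known from precursor cells and from nodes of myelinated axons, marked the oligodendrocyte lineage before myelination. OPC ranged from 784 to 1309 CPM with a median of 1177. COP had 605 ± 131, with no library reaching the lowest OPC library, and oligodendrocytes had 14.3 ± 6.1. OPC thus stood 34.8-fold above astrocytes. Among neurons the highest mean was in Lamp5 interneurons, at 100 ± 31 CPM (53.1 to 143 by library), followed by inhibitory nuclei without subclass at 38.4 ± 9.2. The Lamp5 level was 23.6-fold above the Pvalb class (4.25 ± 2.98), with no overlap. The lineage of OPC and COP carried 63.8% ± 6.0 of Vcan UMIs, and excitatory neurons together 20.8% ± 3.3.

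Tenascin-R peaked at a single stage, the committed precursor. COP ranged from 7039 to 10896 CPM with a median of 9435, and OPC from 3811 to 5448 with a median of 4504. In oligodendrocytes the level was 126 ± 57, so COP exceeded them 71.3-fold and OPC exceeded them 37.1-fold. Excitatory neurons and the Pvalb (593 ± 59) and Sst (362 ± 45) interneurons formed a second tier, from 323 ± 86 in L4/5 IT to 676 ± 166 in L5/6 IT, in which neighbours overlapped. Lamp5 (130 ± 56) and Vip (182 ± 98) interneurons were near microglia (171 ± 61), which are not known to make Tnr. Excitatory neurons still carried 74.7% ± 3.5 of Tnr UMIs, against 17.8% ± 3.1 in OPC and COP. Excitatory neurons were 65.3% of gated nuclei. The medians of their classes were 7453 to 13168 UMIs per nucleus, against 3022 in OPC and 3777 in COP.

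Ptprz1, a receptor phosphatase whose secreted form is the proteoglycan phosphacan, was shared by OPC and astrocytes. OPC ranged from 2450 to 3218 CPM with a median of 2758, and astrocytes from 1505 to 1978 with a median of 1667. The ranges did not overlap. From OPC to COP the level was 5.06-fold lower (546 ± 81), the opposite of Tnr. Among neurons Vip interneurons had the highest mean at 605 ± 114 CPM, while inhibitory nuclei without subclass had 184 ± 45, Lamp5 161 ± 23, Sst 109 ± 30, Pvalb 64.7 ± 12.7 and the excitatory classes 14.8 to 32.7. A Ptprz1 UMI was seen in 79.3% ± 7.1 of Vip nuclei (median 6033 UMIs) and in 8.42% ± 2.11 of microglia (median 1464), and after thinning the shares were 38.4% and 5.72%. Vip is a small class, with 264 nuclei in all, whereas clustering named 1463 nuclei Vip. The level given is that of the nuclei that passed the gate.

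**Figure D2:**
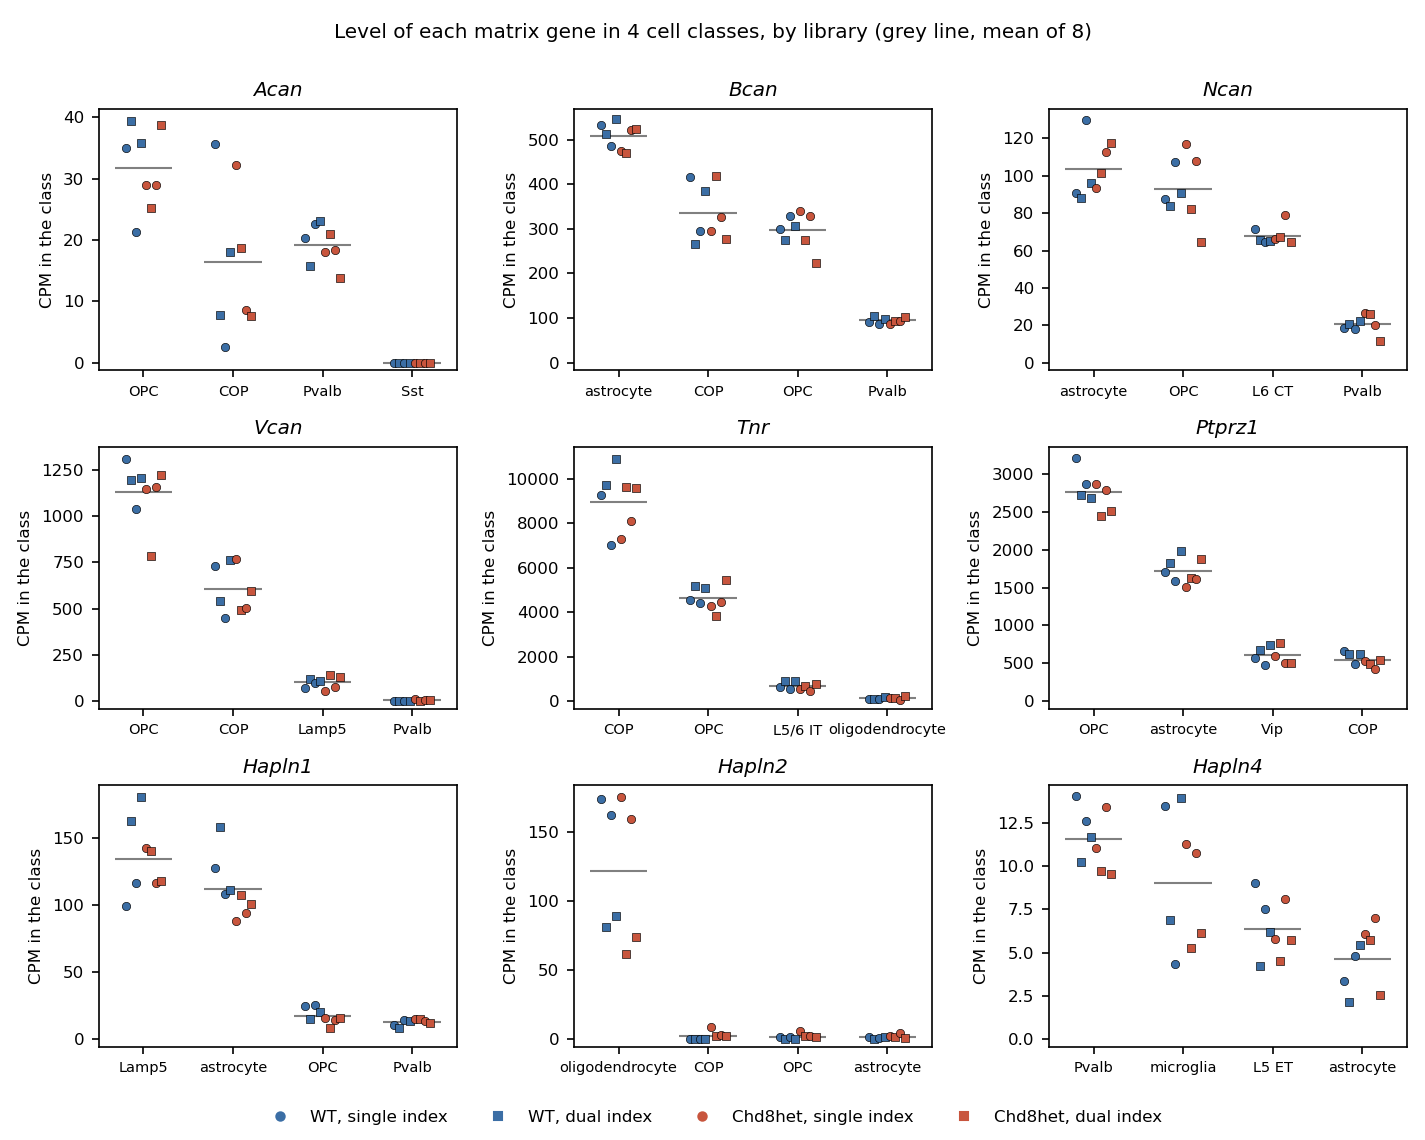
Level of each gene (CPM, vertical axis) in 4 chosen classes, 1 point per library, with genotype by colour and index type by shape; grey lines are means of 8. Hapln2 in oligodendrocytes falls into 2 sets by index type, 159 to 175 CPM in single-indexed and 61.5 to 88.9 in dual-indexed libraries.

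The 3 link proteins each had their highest mean in a different class. Hapln1, the link protein of cartilage and of classic nets, was highest in Lamp5 interneurons (99.2 to 181 CPM by library, median 129) and astrocytes (88.0 to 158, median 108). These 2 classes overlapped, with Lamp5 higher in 7 of 8 libraries. The Pvalb class was at 12.7 ± 2.3, so Lamp5 exceeded it 10.5-fold without overlap. Astrocytes carried 43.7% ± 4.3 of Hapln1 UMIs, Lamp5 17.7% ± 4.1 and excitatory neurons together 17.7% ± 2.7. Astrocytes made up 5865 of the gated nuclei and Lamp5 711. Per nucleus Lamp5 had 1.02 ± 0.27 Hapln1 UMIs and astrocytes 0.31 ± 0.06. Lamp5 had the highest mean of the neuronal classes for both Hapln1 and its chromosomal neighbour Vcan.

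Hapln2, known from nodes of central myelinated axons, was an oligodendrocyte transcript. It averaged 122 ± 50 CPM there and carried 78.8% ± 4.6 of its UMIs there. COP had 2.07 ± 3.01 and OPC 1.82 ± 1.90, so the level in oligodendrocytes was 59.0-fold and 67.0-fold higher. Every other class had a mean of at most 9.18 CPM, the largest being mural cells, with 6 UMIs in all. Across the lineage, Vcan, Tnr and Ptprz1 were therefore high before the oligodendrocyte stage and Hapln2 at it.

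Hapln4, a link protein known from nets of the brainstem, was sparse. The Pvalb class had 9.54 to 14.1 CPM with a median of 11.4, and L5 ET neurons followed among neurons at 6.39 ± 1.70. Pvalb exceeded Lamp5 and astrocytes 2.47-fold and 2.48-fold without overlap, but microglia, from only 50 UMIs, had 9.02 ± 3.80 and overlapped it. In nuclei thinned to 1000 UMIs a Hapln4 molecule was seen in 1.31% ± 0.60 of Pvalb nuclei and 0.84% ± 0.54 of microglia, and these shares overlap within their spread. Over the 21 classes the means ran only from 1.25 to 11.6 CPM. Excitatory neurons together carried 76.5% ± 2.1 of Hapln4 UMIs and inhibitory neurons together 13.9% ± 2.3. Aggrecan and Hapln4 thus both peaked among neurons in the Pvalb class, while Hapln1 did not.

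**Figure D3:**
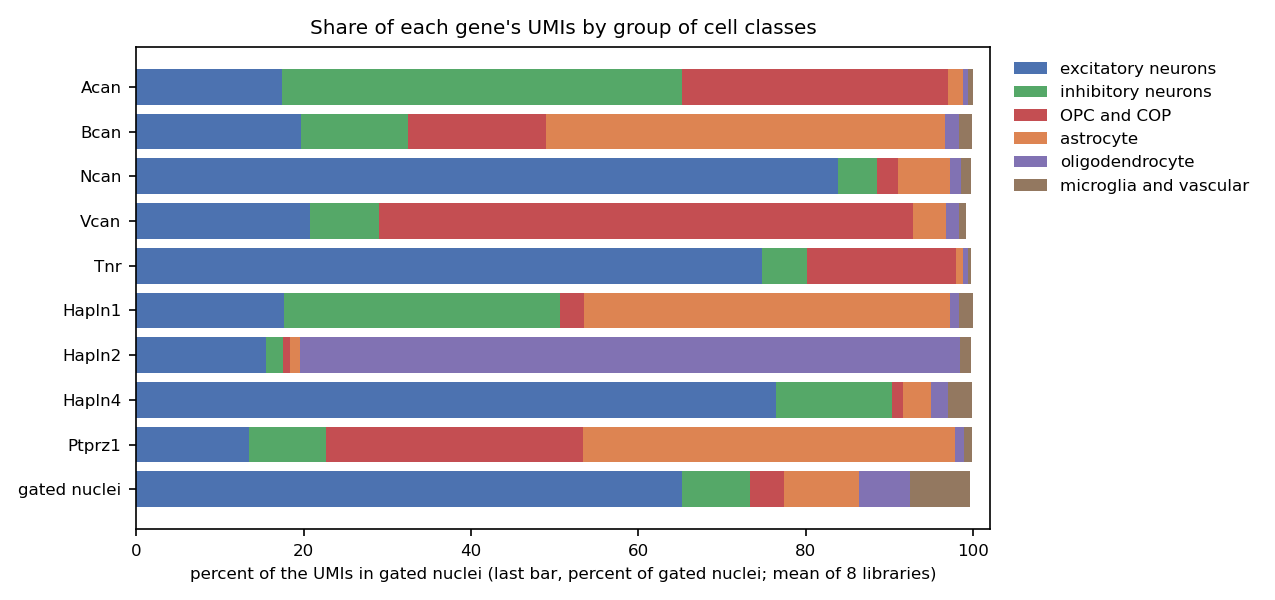
Percent of each gene's UMIs in gated nuclei that came from 6 groups of classes (stacked bars, mean of 8 libraries), with the share of nuclei in the last bar; the small remainder is the striatal class. Excitatory neurons carry 83.8% of Ncan and 74.7% of Tnr, and oligodendrocytes carry 78.8% of Hapln2.

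The order of classes was tested between neighbours in rank with an exact sign-flip test over the 8 libraries (two-sided, smallest possible p = 0.0078). Of 180 neighbour pairs, 18 had the same order in 8 of 8 libraries and 12 had ranges that did not overlap. In the other 162 the higher mean was not higher in all 8 libraries. With BH adjustment over all 180 pairs the smallest value was 0.0781, so no single step reached 0.05. Ranks came from the same 8 libraries, and the adjusted value depended on how many pairs reached the smallest possible p. It therefore does not measure the size of any step. Steps with no overlap included astrocyte over COP for Bcan (1.52-fold), OPC over COP for Vcan (1.87-fold), COP over OPC for Tnr (1.92-fold) and OPC over astrocyte for Ptprz1 (1.61-fold).

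Over the 21 class means, the pattern most like that of Vcan was that of Has2, a hyaluronan synthase (Pearson's r = 0.94 on log2 (CPM + 1)). Rbpjl (0.89) and Gm20658 (0.89) came next. Hapln2 was most like Sec14l5 (0.96), Tnni1 (0.96) and Gm44866 (0.96). Tnr was most like Gm38039 (0.95), which overlaps Tnr in the annotation, so reads of the 2 may not be told apart, then Gm36535 (0.89) and Opcml (0.88). Ptprz1 was most like Nr2e1 (0.92), Ostm1 (0.90) and Plpp4 (0.89), and Bcan like Car8 (0.89), Cyp2j9 (0.88) and Gpr37l1 (0.88). Hapln1 was most like Arid5a (0.83), Frem2 (0.81) and Prxl2a (0.80), and Hapln4 like Rab11fip5 (0.84) and Tpra1 (0.81). Acan was most like Tmco3 (0.85), Vipr2 (0.83), itself a marker of the Pvalb gate, and Gm26633 (0.83), and Ncan like Kcnip3 (0.81), Kcnn3 (0.80) and Rgs20 (0.79). These values compare 14619 genes over 21 classes that share libraries. Between genomic neighbours r was 0.14 for Bcan with Hapln2, -0.07 for Ncan with Hapln4 and 0.40 for Vcan with Hapln1. For Acan with Hapln3, which is not among the 9 and had 0.325 CPM over all nuclei, r was 0.55. The most alike of the 9 were Bcan and Ptprz1 (0.80).

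Chd8 heterozygosity was examined next, in the 17 classes with at least 30 nuclei in every library. No matrix gene was called. The edgeR quasi-likelihood test with sex and genotype called 0 of 100 tests of the 9 genes that passed the count filter (smallest BH-adjusted p 0.997), and 0% of all 185639 gene tests. At unadjusted p under 0.05 there were 7 of the 100, against 2.53% of all gene tests. When like-numbered libraries of one sex were paired across genotype (replicate block), edgeR called 0 of the 100, against 0.0167% of all gene tests, and 18 had unadjusted p under 0.05, against 6.40% of all gene tests. Of these 18 tests 8 were of Tnr, and the classes share the same libraries, so they are not separate observations. The DESeq2 Wald test also called 0 (0.00485% of all gene tests), as did edgeR with index type added (0.0102%). An edgeR test of whether the genotype difference itself differed by sex called 0 of the 100 and 0% of all gene tests. Of the 153 combinations of gene and class 53 were too low to test.

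The smallest adjusted p with the replicate block belonged to Tnr, which was lower in Chd8het in every pair in 7 of the 17 classes. These were 6 excitatory classes (L2/3 IT, L4/5 IT, L5/6 IT, L5 ET, L6 CT and excitatory nuclei without subclass) and Pvalb. Of all gene tests 5.61% were lower in 4 of 4 pairs, and over all 9 genes 11 of the 100 tests were, while 8 of the 100 were higher in 4 of 4 pairs. The 7 classes share the same 8 libraries, so they are not 7 separate observations. In L5 ET neurons the WT libraries had 538, 689, 490 and 724 CPM (male 1, male 2, female 1, female 2) and the Chd8het libraries 450, 525, 399 and 616. The genotypes overlapped, and within each index type both Chd8het libraries were below both WT libraries. The log2 change was -0.35 (SE 0.17, edgeR adjusted p 0.999), and -0.35 (SE 0.06, adjusted p 0.0598) with the replicate block. In L2/3 IT neurons the values were 549, 979, 520 and 968 in WT and 442, 657, 423 and 800 in Chd8het. There the log2 change was -0.40 (SE 0.29), and -0.38 (SE 0.07, edgeR adjusted p 0.305) with the block. With each library left out in turn the change ranged from -0.49 to -0.22 in L5 ET and from -0.64 to -0.19 in L2/3 IT.

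In the classes with the highest Tnr levels the differences were smaller in size, and whether they differ from those in neurons was not tested. In COP the means were 9230 ± 1613 in WT and 8662 ± 1154 in Chd8het (SD, n = 4), and in OPC 4812 ± 375 and 4493 ± 691. The log2 changes were -0.10 (SE 0.17) and -0.13 (SE 0.11), and neither was called. In microglia Tnr was higher in Chd8het in 4 of 4 pairs (149 ± 70 and 193 ± 50 CPM, log2 change 0.40, SE 0.27, not called). Of all gene tests 8.73% were higher in 4 of 4 pairs. Whether free RNA bears on the Tnr values of other classes was not tested.

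**Figure D4:**
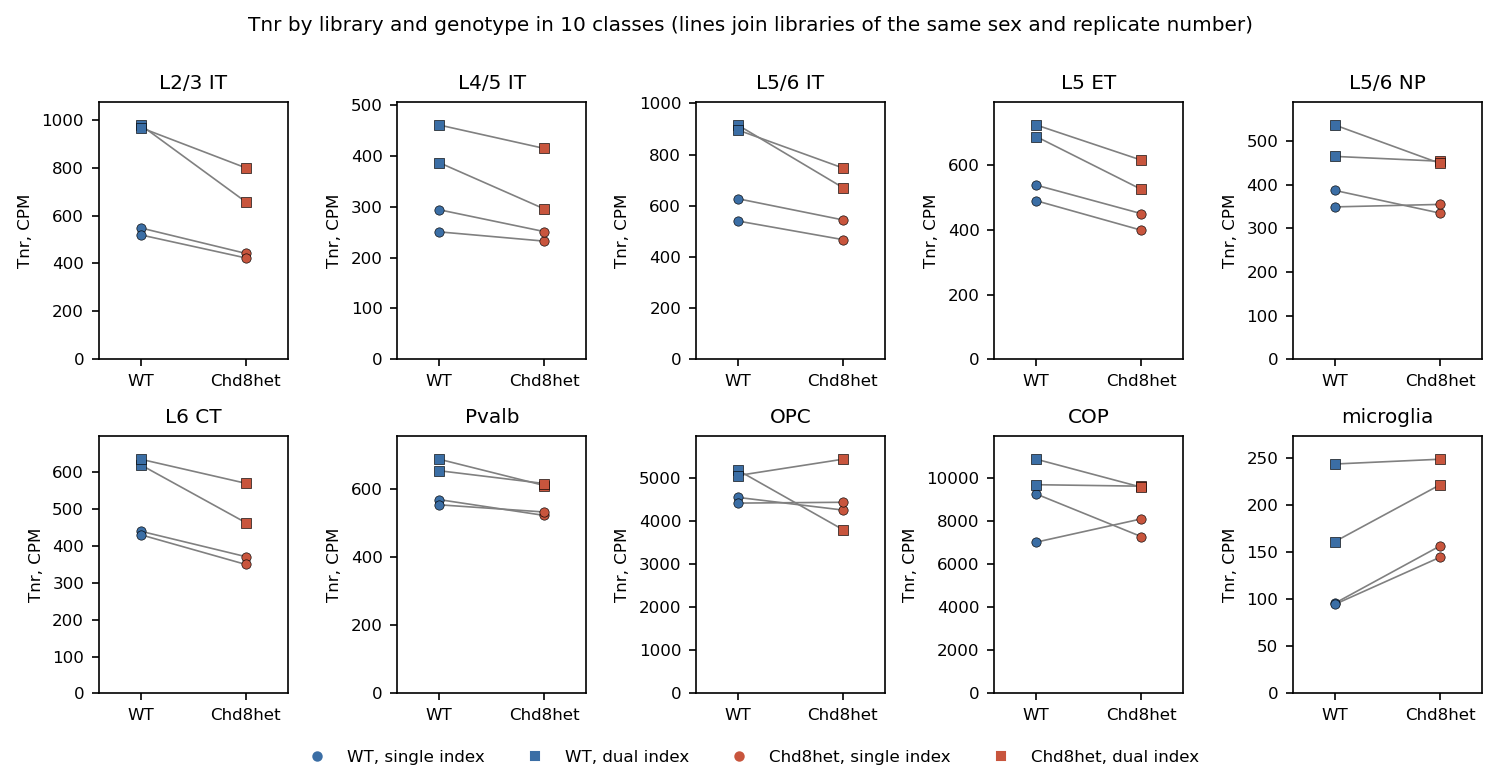
Tnr level (CPM, vertical axis from 0) in WT and Chd8het libraries in 10 classes; lines join like-numbered libraries of one sex, and shape gives index type. All 4 lines fall in L2/3 IT, L4/5 IT, L5/6 IT, L5 ET, L6 CT and Pvalb and rise in microglia, and dual-indexed libraries lie above single-indexed ones in L2/3 IT, L4/5 IT, L5/6 IT and L6 CT.

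For the other genes the main sources gave small, uncalled differences. Acan in the Pvalb class had 20.4, 15.8, 22.7 and 23.1 CPM in WT and 18.0, 20.9, 18.4 and 13.9 in Chd8het, with overlap and a log2 change of -0.24 (SE 0.19). With the stricter gate the same change was 0.01, so no direction can be given. Bcan in astrocytes was 519 ± 26 in WT and 498 ± 29 in Chd8het (log2 change -0.09, SE 0.11). Vcan in OPC was 1187 ± 112 and 1078 ± 199 (-0.17, SE 0.14), and Ptprz1 in OPC 2874 ± 243 and 2655 ± 205 (-0.14, SE 0.10). The Ptprz1 change in OPC ranged from -0.18 to -0.086 with each library left out in turn. Hapln4 in the Pvalb class was 12.2 ± 1.6 and 10.9 ± 1.8 (-0.18, SE 0.21). Hapln2 in oligodendrocytes was 126 ± 48 and 117 ± 58 (-0.16, SE 0.37), and the sign turned with any 1 of 4 libraries left out (range -0.51 to 0.11). Hapln1 in Lamp5 was 140 ± 38 and 129 ± 14 (-0.15, SE 0.18). Ncan in L2/3 IT was 49.0 ± 9.8 and 54.8 ± 13.9 (0.14, SE 0.17).

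Hapln1 in astrocytes was the one main source in which the genotypes did not overlap. WT libraries had 128, 158, 108 and 111 CPM and Chd8het libraries 88.0, 108, 93.9 and 101. The lowest WT and the highest Chd8het library both round to 108 CPM, so the genotypes all but touched. The log2 change was -0.38 (SE 0.14, unadjusted p = 0.0191 and adjusted p = 1.00 with edgeR), and -0.38 (SE 0.11, adjusted p 0.773) with the replicate block. In OPC, a lesser source, Hapln1 was lower in 4 of 4 pairs (21.2 ± 4.9 and 13.4 ± 3.4 CPM, log2 change -0.70, SE 0.30, not called). Among the 100 tests of the 9 genes 3 had genotypes that did not overlap, 1 lower and 2 higher in Chd8het, against 2.06% of all gene tests (0.683% lower and 1.38% higher).

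The other 2 were in L2/3 IT neurons. Vcan there was 3.90 to 5.54 CPM in WT and 6.27 to 6.86 in Chd8het (log2 change 0.47, SE 0.15, not called). Hapln1 there was 1.09 to 1.27 CPM in WT and 1.44 to 1.89 in Chd8het (0.44, SE 0.21, not called), from 155 UMIs in all, and Ptprz1 was 12.6 ± 2.7 in WT and 20.8 ± 8.6 in Chd8het (0.65, SE 0.27, not called; 0.37 without Chd8het male 2, and 0.98 with clusters in place of the gate). The summed level of the 8 astrocyte markers in the same nuclei was 406 to 501 CPM in WT and 532 to 573 in Chd8het, higher in 4 of 4 pairs and without overlap, while their median level was 1.6% of that in astrocytes. The 6 OPC markers there were 219 to 341 CPM in WT and 237 to 353 in Chd8het, higher in 4 of 4 pairs with overlap. Their part in these 3 results was not tested. Bcan in L5/6 near-projecting (NP) neurons, the largest change of the 100 (log2 change 0.85, SE 0.31, not called), was higher in 3 of 4 pairs. Its mean there was only 11.4 ± 4.5 CPM over 8 libraries, 2.2% of that in astrocytes, in a class with as few as 99 nuclei in a library. The part of astrocyte RNA in that level was not tested.

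**Figure D5:**
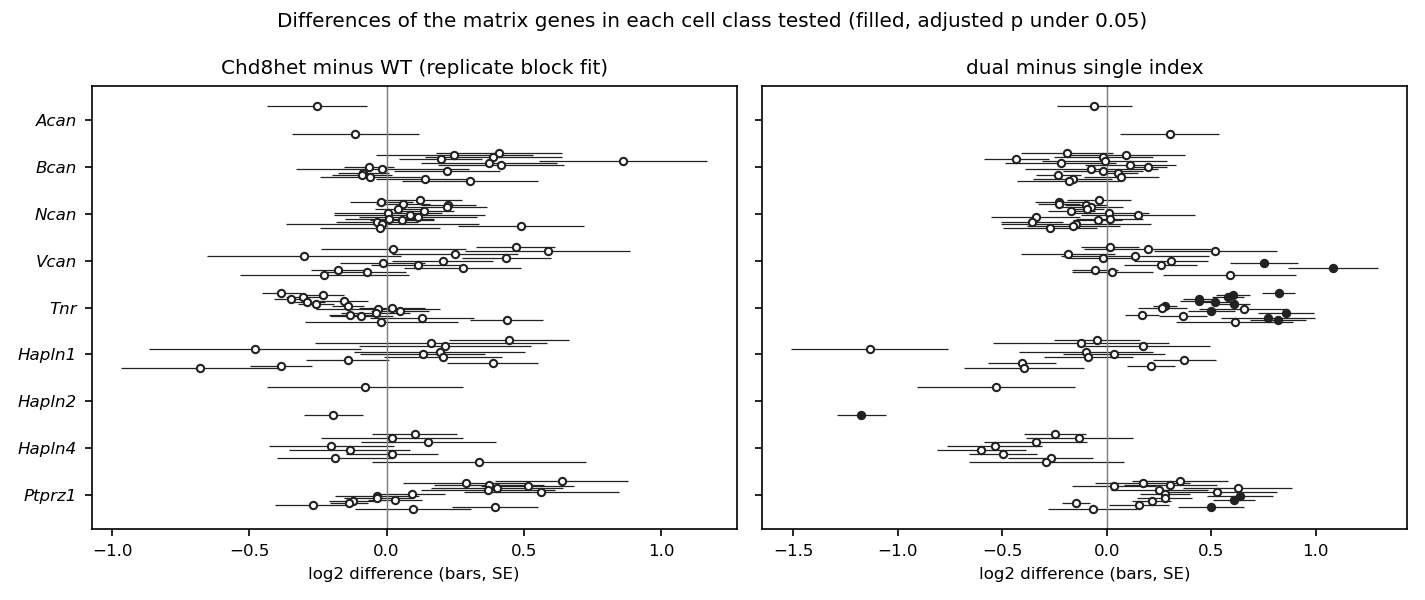
Log2 differences (points, bars SE) of each gene in each class tested, for genotype on the left (replicate block fit) and index type on the right; filled points have adjusted p under 0.05. No genotype point is filled, and 18 index type points are, 12 of them for Tnr.

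Index type, which is balanced over genotype and sex, went with larger differences in several of the genes. The term for dual against single index was called for 18 of the 100 tests of the 9 genes with edgeR, against 14.1% of all gene tests, so the share is near the background. Calls that were higher in dual-indexed libraries made up 17 of the 100 tests, against 7.5% of all gene tests. The called tests were concentrated in Tnr, higher in dual-indexed libraries in 12 of 17 classes by a log2 difference of 0.28 to 0.86, in 10 of them without overlap. In L2/3 IT neurons Tnr was 423 to 549 CPM in single-indexed and 657 to 979 in dual-indexed libraries. Ptprz1 was higher in Sst, inhibitory nuclei without subclass and oligodendrocytes (0.50 to 0.64), and Vcan in Lamp5 and astrocytes (0.75 and 1.08). Hapln2 went the other way in oligodendrocytes, with 174, 162, 175 and 159 CPM in single-indexed and 80.9, 88.9, 61.5 and 73.8 in dual-indexed libraries. That log2 difference was -1.17, and single-indexed libraries exceeded dual-indexed ones without overlap. Replicate number and index type coincide, so index type cannot be told apart from anything else that differed between the 2 replicate sets.

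The sign of the index type difference varied with gene length. Over 9210 genes of at least 10 CPM, Spearman's rho between gene length and the dual against single log2 ratio over all kept nuclei was 0.36, a description across genes of the same 8 libraries. Genes under 10 kb had a median ratio of -0.25 and genes over 300 kb one of 0.14. Hapln2, at 5.83 kb, had -0.78 and Tnr, at 408 kb, had 0.57, both beyond the median of their length class. The part of gene length in these differences was not tested.

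None of the other matrix genes examined was called for genotype either. A list of 65 further genes of the matrix and its makers gave 618 tests in the 17 classes, and edgeR called 0 with and without the replicate block. At unadjusted p under 0.05 there were 31 (5.02%), against 2.53% of all gene tests, and 79 with the block (12.8%), against 6.40%. With the block they ran from 1 of 40 tests in L4/5 IT to 11 of 34 in oligodendrocytes. The 618 tests repeat the same genes over classes that share the same 8 libraries, so they are not separate observations. There were 323 tests with a higher and 295 with a lower value in Chd8het. The balance varied by role, with 53 higher and 28 lower for other core proteins and 19 and 41 for hyaluronan genes. It was 108 and 110 for chondroitin sulphate synthesis, 38 and 32 for proteases and inhibitors, and 105 and 84 for ligands and receptors. Over all kept nuclei the median log2 change of the list was -0.01, against 0.00 for all genes. Among other core proteins, Sparcl1 and Cspg5, a transmembrane chondroitin sulphate proteoglycan, are named by the rule of highest CPM over all nuclei in a role, with top levels in astrocytes (922 ± 64 CPM) and in OPC (586 ± 140). Among hyaluronan genes the rule named Cemip, which takes part in hyaluronan breakdown, and Cemip2. Cemip had its highest mean in fibroblasts (926 ± 359, from 456 to 1412 by library), followed by Pvalb at 679. Cemip2 was at 159 ± 65 in COP and 155 in mural cells. Of the genes that build chondroitin sulphate, Chsy3 had its highest mean in L5/6 NP (1363 ± 230), with L6 CT at 1332. Xylt1, which starts the chains, was highest in OPC (2275 ± 239). Among proteases and inhibitors the rule named the inhibitors Timp3 (518 ± 115 in fibroblasts) and Timp4 (92.9 ± 22.6 in Vip). For ligands and receptors it named the phosphatase Ptprd (22635 ± 1363 in L4/5 IT) and the adhesion molecule Nrcam (944 ± 63 in astrocytes, then 893 in L5/6 IT). Of these 10 genes, Cemip and Chsy3 were lower in Chd8het in 4 of 4 pairs over all nuclei, as were 4.97% of all genes tested there. Cemip had 73.3 ± 9.6 CPM in WT and 68.5 ± 8.4 in Chd8het (log2 change -0.13, SE 0.12), and Chsy3 had 671 ± 25 and 599 ± 49 (log2 change -0.20, SE 0.08, edgeR adjusted p with the block 0.636), neither called.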

How the data were processed

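Nuclear RNA of 8 cortex libraries was counted by the authors, and the deposited files hold whole-number UMI counts per gene and barcode, not normalized. Per the submitters' processing notes, STAR 2.7.9a, STARsolo, Cell Ranger and the mm10 build were used. Whether introns or strand entered the counting is not given in the sources used here. Nuclei with at least 500 genes and at most 5% mitochondrial UMIs were kept (82168 of 97772), and 4000 doublets predicted by Scrublet were removed. Library totals were 69.5 to 98.1 M UMIs. Each nucleus was assigned by marker scores, with a relative score of at least 0.25 and a margin of 0.1, using markers that exclude the 9 genes and the matrix list. Of the kept nuclei 13243 (16.9%) passed no gate. Sst nuclei lay near the gate's limit in 55.3% of cases.

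Counts were summed per library and class and tested with edgeR 4.0.16 (quasi-likelihood, TMM, filterByExpr with a minimum count of 10, sex and genotype) in R 4.3.3, with Benjamini-Hochberg adjustment over all genes of a class and calls below an adjusted p of 0.05. A negative log2 change means lower in Chd8het. DESeq2 1.42.0, other filters, other gates, clusters from scanpy 1.11.5, an index type term and the loss of each library were tried. The edgeR fit was tested on simulated data. Which libraries form a litter pair is not labelled, so like-numbered libraries of one sex were paired. Deviations from the genotype means correlated in every such pair and class (r 0.142 to 0.633). Libraries of the same index type and other sex had r of 0.0046 to 0.413, lower than the pairs in most classes. A pair shares sex, index type and possibly litter, and these cannot be told apart. Intervals and limits of a count of 0 (3 counts) cover counting error only.

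All 9 genes are named. Of the matrix list, the 2 genes of each role with the highest CPM over all nuclei, not scaled by length, are named, and for each of the 9 the 3 genes of most similar pattern, of which 1 is not reported here. The members and lists were chosen with earlier results of these data known.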

Additional observations from a re-analysis of the deposited data

Results flagged for a closer look

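Ncan in L6 CT neurons of WT male 1 was at 71.3 CPM, apart from the other 3 WT libraries, which lay between 64.3 and 65.4 CPM. Of 50 groups of 4 libraries examined this was the only one with such a gap. By chance alone about 5% of groups would show one, so 1 of 50 is no more than chance gives.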

How the results depend on the processing

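No test of the 9 genes or of the matrix list for genotype was called under any of the alternatives that leave out a library, and the replicate block called 0 of them too. Over all genes and classes, where edgeR called 0, there were 175 calls with no count filter, 31 with the replicate block, 19 with index type added, 9 with the DESeq2 Wald test and 1 with no sex term, and 0 to 2 with each library left out (2 without WT male 2, 1 without Chd8het male 1). The cause was not tested. The replicate block changed no call for the 9 genes. The index type term was called for 14 to 20 of their tests with each library left out, against 18.

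Some uncalled log2 changes turned sign. Acan in Pvalb was 0.011 with the stricter gate. With each library left out, Bcan in Pvalb ranged from -0.14 to 0.0019 (highest without WT male 2), Ncan in L2/3 IT from -0.032 to 0.26 and in L6 CT from -0.030 to 0.083 (both lowest without Chd8het female 1), Tnr in COP from -0.24 to 0.036 and Hapln1 in Lamp5 from -0.32 to 0.068 (both highest without WT female 2). Other uncalled changes kept their sign but not their size: Vcan in OPC ranged from -0.26 to -0.024 (the latter without Chd8het male 2), Tnr in OPC from -0.24 to -0.041 (the latter without WT male 2), Acan in OPC from -0.32 to -0.015, Hapln4 in Pvalb from -0.28 to -0.083 (the latter without WT male 1; -0.34 with the stricter gate), Ptprz1 in L2/3 IT from 0.37 to 0.89 and Tnr in microglia from 0.20 to 0.72. Hapln2 in oligodendrocytes ranged from -0.51 to 0.11; it was 0.11 without WT male 1, 0.05 without WT female 1, 0.09 without Chd8het male 2 and 0.04 without Chd8het female 2, each of which leaves the index types unequal between genotypes.

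Counted as UMIs per nucleus, the ratio of OPC to Pvalb for Acan was 0.563 and of astrocyte to OPC for Ncan 0.964, both reversed. By the same measure the ratios were 1.03 for astrocyte over COP (Bcan), 1.48 for OPC over COP (Vcan), 2.44 for COP over OPC (Tnr), 3.29 for Lamp5 over astrocyte (Hapln1), 26.6 for oligodendrocyte over mural (Hapln2), 7.89 for Pvalb over microglia (Hapln4) and 1.88 for OPC over astrocyte (Ptprz1). With clusters in place of the gate they were 1.89 for Bcan, 2.42 for Vcan, 1.43 for Tnr and 28.8 for Hapln2, and the Hapln2 ratio was 7.98 with doublets kept and 6.59 with stricter nuclei. With clusters the shares of UMIs were 42.7% (Bcan, astrocyte), 24.6% (Ncan, L2/3 IT), 27.1% (Tnr, L2/3 IT), 5.64% (Hapln4, excitatory without subclass) and 39.3% (Ptprz1, astrocyte). With the stricter gate they were 31.2% (Acan, Pvalb), 52.7%, 15.7%, 17.3%, 35.2% and 48.4% in the same order.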
